A study of Mus musculus with 20 samples.

Results

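Bulge-marker keratinocytes were taken from single-cell RNA profiles of mouse dorsal skin epidermis in anagen, when follicles grow hair. The members were selected on measured RNA levels. A member cell was a keratinocyte with at least 50 UMIs (unique molecular identifiers, each standing for 1 captured RNA molecule) of Krt14 plus Krt5 per 10000. It also had at least 3 UMIs of Cd34, Postn, Fgf18 and Nfatc1 together, at most 2 UMIs of Ly6a plus Fcgbp, no Fgf5 UMI and under 50 UMIs of Col1a1 plus Col1a2 per 10000. The rule found 203 of 14156 kept control cells and 89 of 11455 kept mutant cells, 292 of 25611 in all. These values chose the members, so the levels of the rule genes are given below as a description only.

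The labels list 4 control samples, of genotype Nfatc1-CreER;R26R;mTmG, and 16 mutant samples of genotype Nfatc1-CreER;R26R;mTmG;Fgf5-/-. Both groups therefore carried the tamoxifen-inducible Cre recombinase driven by Nfatc1, which acts only in cells that express that gene, and the mTmG reporter, in which recombination replaces a red membrane protein by a green one. Controls began 3 days of tamoxifen at postnatal day 21 or 22 and mutants at postnatal day 23 or 24, so genotype and start of tamoxifen cannot be told apart. All samples of a group were pooled in 1 deposited matrix. There were no replicates, nothing was tested, no p-value was computed, and the 95% intervals below cover counting error only. The age at harvest and the nature of the Fgf5 allele are not given in the labels.

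The bulge is the part of the outer root sheath that houses the resting stem cells of the hair follicle. Bulge cells are known for CD34 and keratin 15, for transcription factors such as SOX9, LHX2 and NFATC1 that hold the stem cell state, and for bone morphogenetic protein (BMP) signalling that keeps them quiescent. Fgf18 is a bulge-derived growth factor known to prolong rest, while Fgf5 comes from the outer root sheath and promotes the end of anagen.

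The members were deeper than the average keratinocyte. The median was 14482 UMIs and 3491 genes per control member and 10310 UMIs and 2705 genes per mutant member, against 5933 and 5098 UMIs over all Krt14 and Krt5 keratinocytes. Member cells held 4464339 UMIs in control and 1319192 in mutant. Mitochondrial transcripts had a median share of 3.30% in control and 5.09% in mutant members. Scrublet, a doublet caller, marked 2.59% of kept control and 3.95% of kept mutant cells, among them 2 and 1 members. The libraries had 59 barcodes in common, which 0 control and 2 mutant members carried. The unrecombined tomato reporter had 0 UMIs in either library, and Fgf5 had 11.97 and 8.98 CPM (the share of a gene in the summed UMIs, scaled to parts in 1e+06) over kept control and mutant cells. Fgf5 RNA was thus not lost from the library labelled mutant (1617 and 844 UMIs). The 3' tags check the label only if they lie in the deleted part, which the labels do not give, and mutant below means the library so labelled.

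A large part of the members stood at the marker threshold. Exactly 3 marker UMIs were found in 74 control and 39 mutant members, and 193 control and 87 mutant keratinocytes that met the other limits stood just outside with exactly 2. UMIs of 1 marker gene alone carried 51 control and 28 mutant members, and all 4 markers were found in 11 and 1. The lowest keratin level was 50.2 per 10000 in control and 51.5 in mutant members, and the nearest cells outside had 49.8 and 48.1.

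Postn, a matricellular protein of the follicle's basement membrane zone, was the marker seen most often. It gave UMIs in 168 of 203 control members (82.8%, exact interval 76.8 to 87.7%) and in 76 of 89 mutant members (85.4%, 76.3 to 92.0%), with a median of 1.43 and 1.88 UMIs per 10000 and a highest cell of 14.4 and 23.7. Cd34, a surface sialomucin that is the classical marker of the mouse bulge, was found in 63.1% of control and 50.6% of mutant members. Nfatc1, a calcium-regulated transcription factor, was found in 44.3% and 38.2%, and Fgf18 in 14.3% and 10.1%. T cells of the same libraries were cells with at least 2 UMIs of Cd3d, Cd3e and Cd3g together that did not meet the keratin gate. Their summed level of Cd34 was 8.56 and 13.9 CPM, against 64.1 and 60.6 CPM in control and mutant members. Postn had 12.1 and 36.0 CPM in T cells against 144 and 202 CPM in members. Nfatc1 had 11.4 and 14.7 CPM against 57.8 and 52.3 CPM, and Fgf18 had 5.41 and 3.23 CPM against 16.1 and 8.34 CPM, the marker closest to its T cell level. Whether the T cell values are free RNA or expression was not tested, so they are no established background, least of all for Nfatc1.

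**Figure D1:**
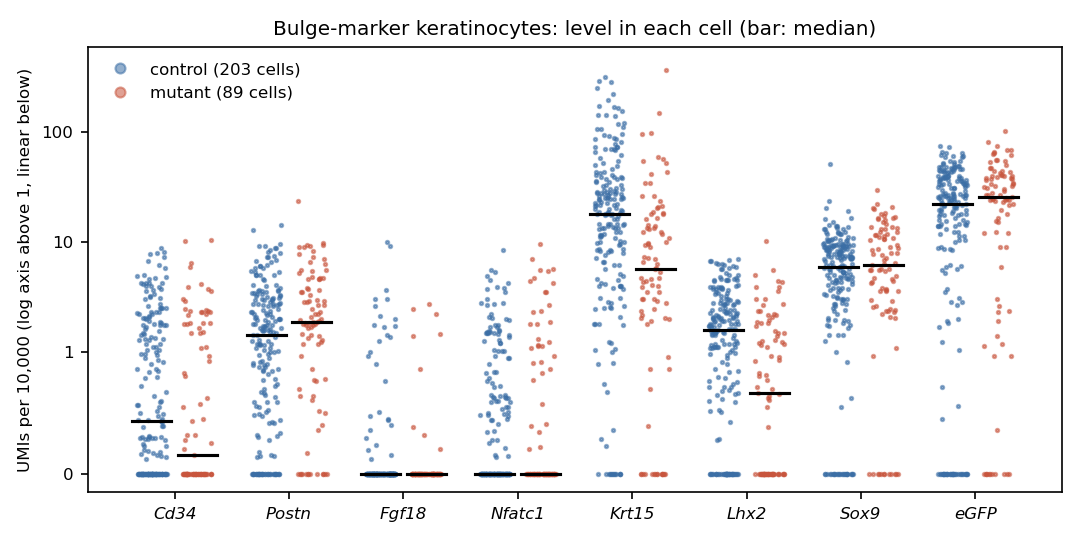
UMIs per 10000 of the 4 rule markers, of Krt15, Lhx2 and Sox9, and of eGFP in each of 203 control and 89 mutant members; the vertical axis is logarithmic above 1 and linear below, and bars mark medians. Krt15 is spread from 0 to 322 in control cells and from 0 to 369 in mutant cells, with medians of 18.3 and 5.74, while Fgf18 and Nfatc1 have medians of 0.

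Of genes the rule did not use, Krt15, the keratin most often used to mark the bulge, did not set these cells apart. It had 2537 CPM in control and 1052 CPM in mutant members. Other follicle keratinocytes (same keratin, collagen, Fgf5 and Ly6a limits, but no UMI of the 4 markers, 968 and 1051 cells) had 2144 and 2260 CPM. Interfollicular basal cells (at least 3 UMIs of Ly6a plus Fcgbp, no marker UMI, low Krt1 and Krt10, 606 and 570 cells) had more, 4446 and 2327 CPM. Judged by Krt15, the label does not hold for these cells over the other keratinocytes of this dataset.

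The levels of Lhx2 and Sox9 were higher in the members than in the other gates, though less than 2-fold over other follicle keratinocytes in control. Lhx2, a LIM homeodomain factor of follicle stem cells, had 197 and 110 CPM in control and mutant members, 102 and 42.2 CPM in other follicle keratinocytes and 14.2 and 5.94 CPM in interfollicular basal cells. Sox9, which specifies the outer root sheath and bulge, had 770 and 1056 CPM, against 448 and 363 CPM in other follicle and 77.5 and 158 CPM in interfollicular basal cells. After each cell was thinned to 2000 UMIs, 63.1% of control and 71.6% of mutant members held a Sox9 UMI, against 43.4% and 30.8% of other follicle keratinocytes and 5.26% and 3.15% of T cells. Before thinning 87.7% and 86.5% of members held one.

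Genes of the outer root sheath outside the bulge were present too. Gnmt, a glycine methyltransferase, had 319 and 177 CPM in control and mutant members and 4.78 and 5.40 on the log2 scale more than in interfollicular basal cells. Cbs, the first enzyme of transsulfuration, had 127 and 142 CPM in members. In other follicle keratinocytes Gnmt had 254 and 81.4 CPM, less than in members in both libraries, and Cbs had 139 and 71.2 CPM. Shh, a hair germ signal, was at 0 UMIs in both libraries, but other hair germ genes were present. The 8 genes of that list summed to 140 and 146 CPM in control and mutant members. At least 3 UMIs of them were found in 92 control and 27 mutant members. Because Krt15 does not stand out and outer root sheath genes are shared, the cells are called bulge-marker keratinocytes, by the rule and not by a cell type.

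**Figure D2:**
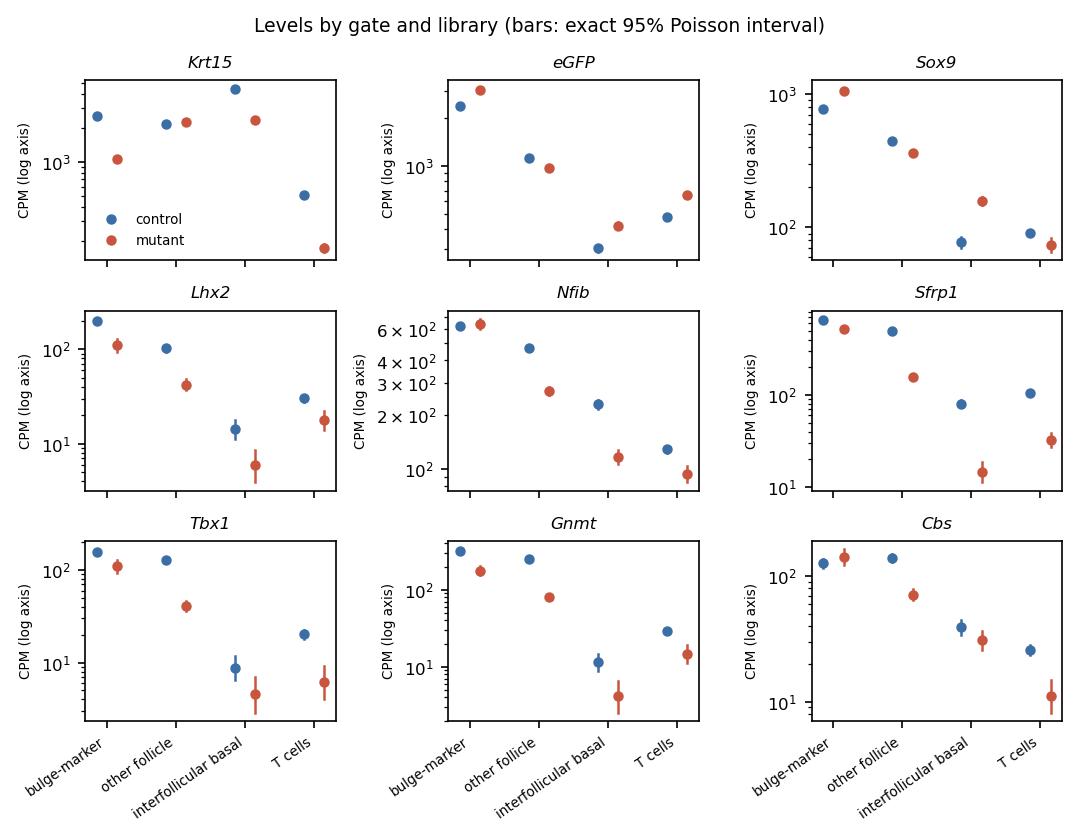
Level in CPM (logarithmic axes, which differ between panels) of 9 genes in 4 groups of cells, control and mutant side by side, with exact Poisson intervals. Lhx2 and Sox9 are highest in bulge-marker keratinocytes in both libraries, whereas control Krt15 is highest in interfollicular basal cells, at 4446 CPM.

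Compared with the other follicle keratinocytes, 2 of 1257 genes at 100 CPM or more were at least 2-fold higher in both libraries (0.159%), eGFP and the rule gene Postn, and 14 were at least 2-fold lower (1.11%). In the mutant library alone, several bulge genes were over 2-fold higher in members. Tnc had a log2 ratio of 1.81 there against 0.13 in control, Sfrp1 1.73 against 0.39, Sox9 1.54 against 0.78, Gas1 1.46 against 0.38, Runx1 1.40 against 0.35 and Lhx2 1.38 against 0.95. Other bulge genes did not rise so. In the mutant library Krt15 was lower in members (-1.10, against 0.24 in control), and Col17a1 had 569 CPM in members and 828 CPM in other follicle cells. Egfl6 (0.13 in mutant against 0.91 in control), Foxp1 (0.62 against 0.31) and Nfix (0.93 against 0.30) stayed under 2-fold. Among the 14 genes lower in both libraries were the suprabasal keratins Krt1 and Krt10. Krt1 had 2.46 CPM in control members and 133 CPM in other control follicle cells, and Ly6d, a surface marker of differentiating epidermis, had 168 and 908 CPM. Serpinb2, a protease inhibitor of stressed epidermis, had 165 CPM in mutant members and 2704 CPM in other mutant follicle cells. Since one gate requires marker UMIs and the other forbids them, median depth also differed between them, 14482 and 10310 UMIs in members against 4678 and 4362, and its part was not tested.

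The distance to interfollicular basal cells was wider. There 103 of 1361 genes were at least 2-fold higher in members in both libraries (7.57%) and 88 were lower (6.47%). The higher genes included Tbx1 (155 and 110 CPM, against 8.78 and 4.62 CPM), a T-box factor of follicle stem cells, and Pi15 (191 and 202 CPM, against 8.04 and 2.64 CPM). Actin-binding and matrix genes were also among them. Cald1, a regulator of actomyosin, had 590 and 788 CPM against 49.0 and 37.2 CPM, and Bgn, a small leucine-rich proteoglycan, 210 and 257 CPM against 14.4 and 9.46 CPM. Col4a1, a chain of basement membrane collagen, had 162 and 237 CPM against 17.4 and 14.7 CPM. Lower genes included Tslp, an epithelial alarm cytokine, with 23.5 and 99.3 CPM against 373 and 3361 CPM, and Cd74, with 7.84 and 10.6 CPM against 211 and 190 CPM.

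The green reporter marked most members. An eGFP UMI was found in 169 of 203 control members (83.3%, 77.4 to 88.1%) and in 78 of 89 mutant members (87.6%, 79.0 to 93.7%). The log2 ratio of these shares was 0.07 (-0.33 to 0.47). The median was 22.2 and 25.9 UMIs per 10000, the lowest cell had 0 in both libraries, and the highest had 74.9 and 103. After thinning, the shares were 76.4% and 79.5% in members, 39.9% and 37.6% in other follicle keratinocytes, and 17.8% and 21.8% in interfollicular basal cells. T cells had 20.4% and 27.9%, so the interfollicular share was below that of T cells. T cells also held UMIs of Nfatc1, and whether their eGFP was free RNA or came from recombination was not tested. Nfatc1 both drives the recombinase and entered the rule, so the high share in members is not independent of how they were chosen.

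Members made up a smaller share of the mutant library. They were 1.43% of kept control cells (1.24 to 1.64%) and 0.777% of kept mutant cells (0.624 to 0.955%), a log2 ratio of -0.88 (-1.26 to -0.52). Of keratinocytes passing the keratin gate they were 7.14% of 2845 and 3.74% of 2379, a log2 ratio of -0.93 (-1.31 to -0.57). The rule counts UMIs, and mutant members and keratinocytes were shallower. With every cell thinned to 3000 UMIs and 2 marker UMIs required, 151 of 10172 control and 79 of 8738 mutant cells qualified, and the log2 ratio was -0.72. Without Postn in the marker sum 99 control and 28 mutant cells were left, and the log2 ratio was -1.52.

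Among members, the marker with most UMIs varied. Postn led in 99 control (48.8%) and 54 mutant members (60.7%), Cd34 in 52 (25.6%) and 14 (15.7%), Nfatc1 in 23 (11.3%) and 14 (15.7%), and Fgf18 in 5 and 2, with ties in 24 and 5. The log2 ratio of the Cd34-led share was -0.70 with an interval of -1.67 to 0.17, which includes 0.

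The summed Krt15 level of Cd34-led cells was 3906 against 1934 CPM in Postn-led control cells and 2677 against 676 CPM in mutant cells. In the 14 mutant Cd34-led cells 1 cell held 179 of 429 Krt15 UMIs. Without the 2 cells with most Krt15 UMIs in each class, an alternative chosen after seeing the data, the levels were 3058 against 1740 CPM in control and 1194 against 610 CPM in mutant cells, under 2-fold in both. The medians were 19.2 and 18.6 UMIs per 10000 in control and 12.7 and 4.54 in mutant cells. Outside the rule genes, Ccl2, a monocyte chemokine (457 against 148 CPM in control and 312 against 89.7 CPM in mutant cells), S100a4 and Slpi were also at least 2-fold higher in both. With the rule gene Cd34 these made 5 of 1261 genes (0.397%). A further 5 (0.397%) were lower, Krt79, Cst6, Ly6d, Egr2 and the rule gene Postn. Krt79 and Cst6 are genes of the upper follicle and its opening. Cst6, a cysteine protease inhibitor, had 567 against 3065 CPM in control and 31.2 against 428 CPM in mutant cells. In control Cd34-led cells 1 cell held 482 of 504 Cst6 UMIs, and in mutant Postn-led cells 1 cell held 300 of 377. Without the top cell of each class the levels were 26.7 against 2112 CPM and 26.5 against 90.1 CPM.

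Nfatc1-led cells differed from Postn-led cells in 7 higher genes (0.56% of 1249) and 12 lower ones (0.961%), rule genes included. Tslp was the most different, at 102 against 10.1 CPM in control and 478 against 23.8 CPM in mutant cells, followed in size by genes such as Igfbp3 (224 against 78.6 and 423 against 140 CPM) and the water and glycerol channel Aqp3 (214 against 84.5 and 303 against 59.0 CPM). Krt71, a keratin of the inner root sheath, was lower, at 24.3 against 168 CPM in control and 24.9 against 142 CPM in mutant cells. The cell cycle gene Ccnd1 was also lower, at 77.5 against 157 and 39.8 against 288 CPM. The mutant Nfatc1-led class held only 14 cells with 201057 UMIs in all.

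A small set of members with upper follicle genes held a large part of the RNA in control. These cells were picked out after the values were seen, as members with at least 3 UMIs of Krt79 or of Cst6. They numbered 41 of 203 in control (20.2%, 14.9 to 26.4%) and 10 of 89 in mutant (11.2%, 5.52 to 19.7%), a log2 ratio of shares of -0.85 (-2.01 to 0.18). They were 56.5% of control Nfatc1-led cells and 5.77% of control Cd34-led cells, which had a median of 23065 and 12409 UMIs. The limit counts UMIs, so deeper cells meet it more readily, and the part of depth was not tested. In control the cells with Krt79 or Cst6 held 1759956 of the members' 4464339 UMIs, and in mutant 228410 of 1319192. Their Apoe level was 56916 CPM in control and 20616 CPM in mutant cells, against 10540 and 11543 CPM in the remaining members. Apoe encodes a lipid carrier and was named after its values were seen. Sox9 (930 and 1042 CPM) and eGFP (2543 and 3008 CPM) were present in them, against 666 and 1059 CPM and 2290 and 3012 CPM in the remaining members. The rule gene Cd34 gave 44 and 1 UMIs in them, 25.001 and 4.38 CPM, against 89.5 and 72.4 CPM.

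**Figure D3:**
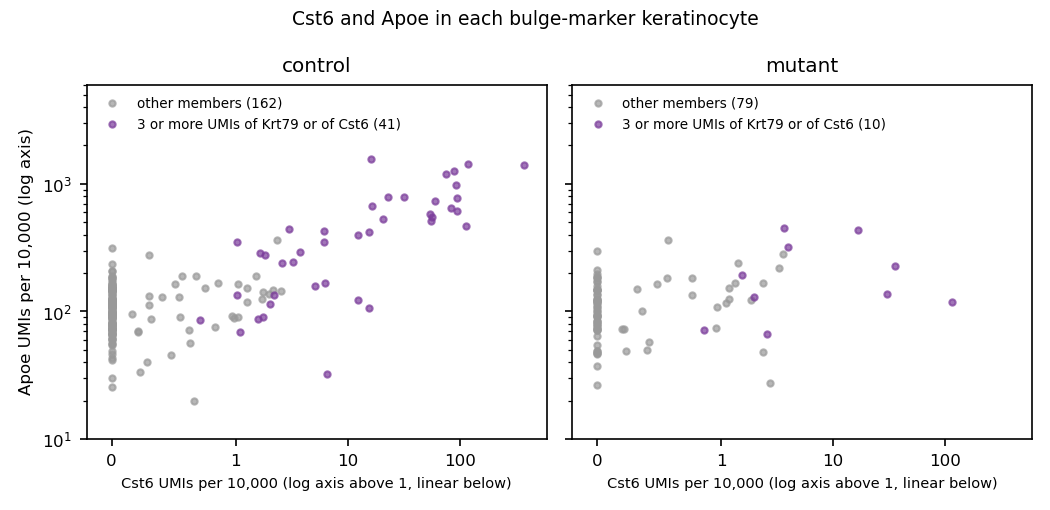
Cst6 (horizontal axis, logarithmic above 1 and linear below) and Apoe (vertical axis, logarithmic) in UMIs per 10000 of each member, with cells of at least 3 UMIs of Krt79 or of Cst6 in purple. In control 41 such cells reach an Apoe level of 1571, while the 10 mutant cells stay at or below 449.

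Genes were then compared between mutant and control members. A gene was called if its summed level differed at least 2-fold, the nearer bound of the exact interval lay beyond 1.5-fold and the higher library had at least 100 CPM. Of 7785 genes with 10 CPM or more in either library, 79 rose (1.01%) and 40 fell (0.514%) in mutant members, 1.53% in either direction. Of the 1562 genes that reached 100 CPM the called share was 7.62%. With edgeR's TMM scaling the counts were 57 and 55, and with DESeq2's size factors 64 and 50. Over all 7785 genes compared the median log2 ratio was 0.07, with 4198 ratios above 0 and 3587 below. Under TMM scaling 3821 lay above 0 and under DESeq2 scaling 3906. In the same comparison 217 of 7893 genes passed in other follicle keratinocytes (2.75%), 1.61% higher and 1.14% lower, and 289 of 7894 in interfollicular basal cells (3.66%), 1.86% higher and 1.8% lower. Of genes that reached 100 CPM these were 14.1% and 17.9%, in gates that hold more cells. Without the 5% of members with most UMIs of a gene (10 control and 4 mutant cells), 63 rose and 38 fell, and 55 and 29 of the first calls were kept.

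**Figure D4:**
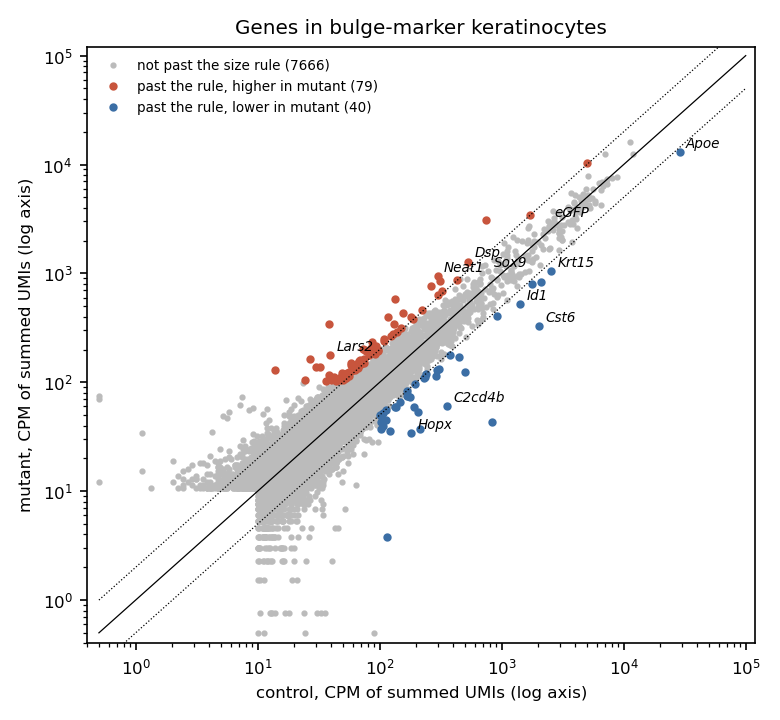
Summed level of 7785 genes in mutant (vertical) against control (horizontal) bulge-marker keratinocytes, in CPM on logarithmic axes; values under 0.5 are drawn at 0.5, the solid line marks equality and the dotted lines 2-fold. The 79 genes past the size rule above the line include Neat1 and Dsp, and the 40 below it include Apoe, Krt15, Id1 and Hopx.

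Of 22 bulge stem cell genes compared, 1 rose and 1 fell. Over all genes, 1.53% of those compared and 7.62% of those that reached 100 CPM were called. Of the 22 bulge stem cell genes 11 lay above 0 and 11 below, with a median log2 ratio of -0.03 (0.07 over all genes). Without the top 5% of cells of each gene the median was -0.42, against 0.02 over all genes. In other follicle keratinocytes and interfollicular basal cells the medians of the same list were -0.68 and -0.93. Krt15 (chromosome 11, 100131758 to 100135928, minus strand, GRCm38) fell, with a log2 ratio of -1.27 (-1.35 to -1.19). Its UMIs were found in 190 of 203 control and 74 of 89 mutant cells, and the cells overlap over the whole range. In T cells Krt15 went from 508 to 171 CPM, and the part of free RNA in the member values was not tested. Tnc, the matrix protein tenascin C, rose from 90.7 to 182 CPM (1.004, 0.77 to 1.24), and without the top 5% of cells it was no longer past the rule (0.86). Lhx2 (-0.84, -1.11 to -0.59) and Sox9 (0.46, 0.36 to 0.55) did not pass the size rule, nor did Nfib, a chromatin-opening stem cell factor at 623 and 638 CPM (0.03, -0.08 to 0.14). Sfrp1, a secreted Wnt inhibitor, had 650 and 524 CPM (-0.31, -0.43 to -0.19), while in other follicle keratinocytes its ratio was -1.65 and passed the rule.

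Of the targets of BMP signalling, all 7 compared had ratios below 0 under each scaling, against 3587 of 7785 over all genes in the main scaling. The rule was passed by 2 of the 7, against 1.53% of all genes compared and 7.62% of those that reached 100 CPM. The median of the 7 was -1.26, against -1.48 in other follicle keratinocytes and -1.22 in interfollicular basal cells. Id1 (chromosome 2, 152736251 to 152737410, plus strand), an inhibitor of differentiation factors, fell from 1415 to 527 CPM (-1.43, -1.54 to -1.31). Its median was 11.7 UMIs per 10000 in control and 3.07 in mutant cells, the lowest cell had 0 in both, and the highest had 57.5 and 28.2. Id3 (chromosome 4, 136143497 to 136145755, plus strand) fell from 2086 to 835 CPM (-1.32, -1.41 to -1.23), with medians of 16.05 and 6.06. The medians of mutant cells were thus lower for both genes, while the cells overlapped from 0 to the highest mutant cell. Id2 (645 and 346 CPM, -0.90), Id4 (273 and 202 CPM, -0.43) and the inhibitory Smad7 (129 and 75.8 CPM, -0.77) did not pass. The pseudoreceptor Bambi (54.4 and 22.7 CPM, -1.26) was under the 100 CPM that a call requires, so it could not pass. T cells also had less Id1 in the mutant library, 356 and 126 CPM, and less Id3, 1110 and 463 CPM. The receptors Bmpr1a (63.4 and 93.2 CPM, 0.56) and Bmpr2 (78.2 and 123 CPM, 0.65) and the antagonist Fst (271 and 240 CPM, -0.17) stayed inside the size rule.

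The 250 bases before the RefSeq start (GRCm38.p6) of Id3 and Id2 are shown because Id3 fell and Id2, which did not pass the rule, is its relative. No window was read for Id1. Capitals mark matches on either strand to the short SMAD-binding letters GGCGCC and CAGAC, which are held by 9.59% and 42.2% of 32851 such windows. Id3 lies at chr4:136143572-136143821, plus strand, and Id2 at chr12:25096093-25096342, minus strand. Id3 holds 2 matches to CAGAC and 0 to GGCGCC, and Id2 holds 1 match to GGCGCC and 0 to CAGAC.
Id3: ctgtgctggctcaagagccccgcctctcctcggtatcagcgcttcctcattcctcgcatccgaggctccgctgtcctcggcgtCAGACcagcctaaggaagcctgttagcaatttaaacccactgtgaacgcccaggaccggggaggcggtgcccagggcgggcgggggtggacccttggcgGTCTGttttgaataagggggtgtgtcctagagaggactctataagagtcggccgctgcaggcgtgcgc
Id2: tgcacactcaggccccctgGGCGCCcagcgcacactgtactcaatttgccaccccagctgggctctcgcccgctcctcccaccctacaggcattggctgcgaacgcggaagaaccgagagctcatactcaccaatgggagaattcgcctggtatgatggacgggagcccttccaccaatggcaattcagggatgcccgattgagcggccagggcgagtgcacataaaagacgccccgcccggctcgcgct
The matches describe these windows and say nothing of binding.

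The genes with the largest drops were of mixed kinds. Hopx (chromosome 5, 77086988 to 77115121, minus strand), a homeodomain-only protein of quiescent bulge and inner bulge cells, fell from 182 to 34.1 CPM (-2.42, -2.88 to -1.98). It had UMIs in 122 of 203 control and 23 of 89 mutant members, and its highest cell had 15.97 and 2.74 per 10000. After thinning to 2000 UMIs the shares were 23.6% and 7.95%. T cells held more Hopx in the mutant library, 468 and 1287 CPM. C2cd4b (358 to 60.6 CPM, -2.56) and Sostdc1, a secreted BMP and Wnt antagonist that is also a dermal papilla marker (206 to 53.1 CPM, -1.96), fell as well, as did Smco4 (103 to 37.1 CPM, -1.48, not called without the top 5% of cells) and the transcriptional coregulator Sertad1 (288 to 115 CPM, -1.32). Cst6 fell from 2014 to 330 CPM (-2.61), and 54.5% of its control UMIs lay in 5 cells. Krt35, a hair shaft keratin (116 to 3.79 CPM, -4.93), and Hbb-bt, a red cell globin (500 to 124 CPM, -2.02), rested on few cells and were not called without the top 5%.

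Apoe and Ccl27a, a skin-homing chemokine, fell by the summed UMIs, and both rested on the cells with Krt79 or Cst6. Apoe went from 28823 to 13114 CPM (-1.14, -1.16 to -1.11, and -0.75 and not called without the top 5% of cells), while its median was 117 UMIs per 10000 in both libraries, between a lowest cell of 19.9 and 26.6 and a highest of 1571 and 449. Without the cells with Krt79 or Cst6 the log2 ratio of Apoe was 0.13, that of Ccl27a went from -1.21 to 0.06, and that of Cst6, which itself defined those cells, went from -2.61 to 0.89. The inner root sheath genes Tchh (106 to 39.4 CPM, -1.43) and Krt25 (136 to 59.1 CPM, -1.199) also fell, and 79.3% and 63.4% of their control UMIs lay in 5 cells. Without the top 5% of cells, Tchh was at 0.08.

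Stress-sensor and immediate-early genes were read against the 7.62% of genes called among those that reached 100 CPM. Of 8 genes of the growth arrest and stress list 3 fell and 0 rose (median -0.48). These were Gadd45g (213 to 37.1 CPM, -2.52), Gadd45b (919 to 403 CPM, -1.19) and Ppp1r15a (444 to 172 CPM, -1.37), the last a phosphatase subunit that restores translation after stress. Of 21 immediate-early genes 2 fell and 0 rose, with a median of -0.37 and 16 ratios below 0. Jund went from 1788 to 805 CPM (-1.15) and Socs3, which dampens cytokine receptors, from 134 to 59.1 CPM (-1.18). Fos stayed just inside the rule at 3795 and 1931 CPM (-0.97, -1.04 to -0.91), and it was called without the top 5% of cells (-1.5002). The same list had medians of -0.59 in other follicle keratinocytes and -1.33 in interfollicular basal cells. Immediate-early genes are known to respond to cell isolation, whose part was not tested.

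**Figure D5:**
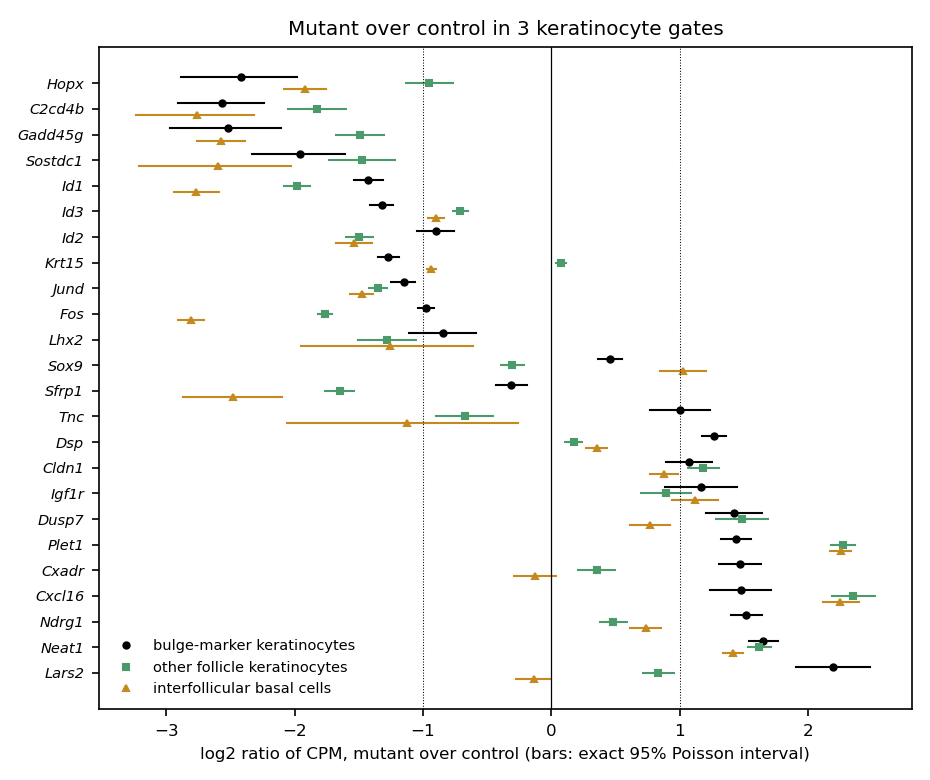
Log2 ratio of CPM, mutant over control, with exact intervals, for 24 genes in bulge-marker keratinocytes (black), other follicle keratinocytes (green squares) and interfollicular basal cells (orange triangles); dotted lines mark 2-fold. Cxadr, Ndrg1, Dsp and Lars2 have their highest ratio in the bulge-marker cells, whereas Id1 and Fos have their smallest drop there.

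The genes that rose most in mutant members were of mixed kinds. Neat1 (chromosome 19, 5824708 to 5845478, minus strand), the scaffold RNA of nuclear paraspeckles, rose from 300 to 941 CPM (1.65, 1.54 to 1.76), with a median of 1.78 and 5.92 UMIs per 10000 and a highest cell of 33.8 and 131. It was also higher in mutant T cells, 493 and 1583 CPM. Plet1 (chromosome 9, 50494525 to 50505482, plus strand), a surface protein of follicle progenitors near the opening of the follicle, rose from 312 to 843 CPM (1.44, 1.32 to 1.55). Its median was 1.26 and 4.27 per 10000, and cells of both libraries overlapped from 0 to 33.6. Its ratio was 2.27 in other follicle keratinocytes and 2.25 in interfollicular basal cells. Cdcp1, a transmembrane protein phosphorylated by SRC kinases (38.1 to 117.5 CPM, 1.63), Ppif, a mitochondrial cyclophilin (36.5 to 103 CPM, 1.497, not called without the top 5% of cells), and the chemokine Cxcl16 (72.8 to 202 CPM, 1.48) also rose and did so in both other gates.

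Genes that passed the rule in the members and in neither other gate included Krt15, Apoe and Tnc, given above, and Cxadr, Ndrg1 and Lars2. They are not a full list. Krt15 had 2144 and 2260 CPM in control and mutant other follicle keratinocytes and 4446 and 2327 CPM in interfollicular basal cells. Tnc was under 100 CPM in both other gates, where it could not be called. Cxadr, a tight junction adhesion receptor, rose from 156 to 432 CPM (1.47, 1.31 to 1.63), with ratios of 0.35 in other follicle and -0.13 in interfollicular basal cells. Ndrg1, a gene induced by low oxygen and differentiation, rose from 265 to 760 CPM (1.52, 1.40 to 1.64), with 0.48 and 0.73. Its median was 1.80 and 4.27 per 10000. Lars2, the mitochondrial leucyl-tRNA synthetase, rose from 39.2 to 179 CPM (2.19, 1.90 to 2.48), with 0.83 and -0.14. The difference between gates was not tested. Lars2 and the gene models Gm42418 (738 to 3100 CPM, 2.07) and AY036118 (24.6 to 105 CPM, 2.09), which overlap ribosomal RNA sequence, all rose, the latter pair named after their values were seen, and Gm42418 in T cells went from 2074 to 7059 CPM. The median mitochondrial share of members also differed, 3.30% and 5.09%, and the part of RNA quality in these ratios was not tested. Krtdap, Pinlyp and Cpm were among the 12 largest rises (3.23, 3.17 and 1.41) but were not called without the top 5% of cells.

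Most cell junction genes had ratios above 0. Of 15 compared 2 rose and 0 fell, against 1.53% called of all genes compared and 7.62% of those that reached 100 CPM. Ratios lay above 0 in 14 of 15 (13 of 15 under TMM or DESeq2 scaling), against 4198 of 7785 over all genes. The median was 0.72, against 0.07 over all genes, 0.28 in other follicle keratinocytes and 0.35 in interfollicular basal cells. Dsp, the desmosomal plaque protein desmoplakin, rose from 534 to 1284 CPM (1.27, 1.18 to 1.36), with medians of 4.02 and 8.66 per 10000. Cldn1, a tight junction claudin, rose from 149 to 313 CPM (1.07, 0.89 to 1.25). The cadherin Cdh1 (159 and 306 CPM, 0.94), the gap junction protein Gja1 (1037 and 1897 CPM, 0.87), Jup (257 and 437 CPM, 0.77) and Dsc3 (282 and 465 CPM, 0.72) did not pass.

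Of 17 integrin and hemidesmosome genes none passed the rule and 14 had ratios above 0 (13 under either other scaling, median 0.36). Over all genes 4198 of 7785 ratios lay above 0. Itga6, which anchors basal cells to the basement membrane, had 185 and 318 CPM (0.78, 0.61 to 0.95), and Col17a1, a hemidesmosomal collagen of follicle stem cells, had 427 and 569 CPM (0.41, 0.29 to 0.54), below its ratio of 1.27 in other follicle keratinocytes. Of 15 matrix genes 2 rose, against 1.53% called of all genes compared and 7.62% of those that reached 100 CPM. The 2 were Tnc and Thbs1, the latter a cell-binding thrombospondin (108 to 240 CPM, 1.16, 0.95 to 1.36). Of 8 genes of the YAP and TEAD list, which read mechanical signals, none passed and all 8 had ratios above 0 under every scaling, with a median of 0.54. Wwtr1, the YAP paralogue TAZ, had 133 and 212 CPM (0.68), and Yap1 had 35.8 and 62.9 CPM (0.81).

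The receptors and feedback genes of FGF signalling showed 1 call (7.62% of all genes that reached 100 CPM were called). Of the 7 listed FGF ligands none reached 10 CPM outside the rule's Fgf18, which had 16.1 and 8.34 CPM and is counted with the markers. Fgfr1, the main receptor of FGF5, had 76.6 and 122 CPM (0.67, 0.39 to 0.95), Fgfr2, the receptor of FGF7 and FGF10, had 70.1 and 66.0 CPM (-0.09, -0.45 to 0.26), and Fgfr3 had 82.7 and 118 CPM (0.52, 0.24 to 0.79). The syndecan co-receptors Sdc1 (660 and 898 CPM, 0.44) and Sdc4 (1132 and 1755 CPM, 0.63) did not pass either. Of 10 feedback genes of the ERK kinase cascade only Dusp7, a cytosolic ERK phosphatase, rose, from 86.9 to 233 CPM (1.42, 1.2002 to 1.64), with UMIs in 112 control and 66 mutant cells. Dusp6, a close relative, had 97.4 and 156 CPM (0.68), while Spry1 (18.8 and 7.58 CPM, -1.31) and Spry2 (37.4 and 21.2 CPM, -0.82) had ratios below 0. Spry1 and Spry2 were under the 100 CPM that a call requires, so they could not pass.

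Among other growth factor genes, Igf1r rose from 60.0 to 135 CPM (1.17, 0.89 to 1.45), and Epgn, an EGF receptor ligand, rose from 30.0 to 138 CPM (2.20, 1.87 to 2.53). Epgn had UMIs in 41 control and 44 mutant cells, and without the top 5% of cells it did not reach the level minimum. Its ratio was 4.20 in other follicle keratinocytes and 2.68 in interfollicular basal cells. Serpinb2 rose from 26.9 to 165 CPM (2.62, 2.29 to 2.95), but 85.3% of its mutant UMIs lay in 5 cells. Of 13 heat shock genes 2 rose (7.62% of all genes that reached 100 CPM were called), Hspa1b (180 to 394 CPM, 1.13) and Hsph1 (67.6 to 157 CPM, 1.21), while the list's median was -0.17. Hspa1b has a near-identical neighbour, Hspa1a (518 and 885 CPM, 0.77), so the split of reads between them is uncertain. Of 11 Wnt pathway genes 1 fell, the receptor Fzd2, from 103 to 49.3 CPM (-1.06, -1.46 to -0.68), and without Postn in the marker sum it was at -0.44 and not called.

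The 250 bases before Hspa1b (chr17:34959239-34959488, minus strand, RefSeq, GRCm38.p6) are shown with the heat shock element letters GAANNTTC in capitals, found once here and in 6.69% of 32851 windows.
Hspa1b: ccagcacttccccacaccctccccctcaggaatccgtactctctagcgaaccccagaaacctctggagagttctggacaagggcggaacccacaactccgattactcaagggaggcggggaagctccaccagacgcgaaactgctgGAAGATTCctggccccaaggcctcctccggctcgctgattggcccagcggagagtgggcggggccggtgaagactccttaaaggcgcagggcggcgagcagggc

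Cell cycle transcripts were less frequent in mutant members. After thinning to 2000 UMIs, 63 of 203 control members (31.0%, 24.7 to 37.9%) and 14 of 88 mutant members (15.9%, 8.98 to 25.2%) held 2 or more UMIs of S phase or G2/M genes, a log2 ratio of -0.96 (-1.91 to -0.11). Before thinning the shares were 86.7% and 75.3%. Other follicle keratinocytes had 28.2% and 18.4%, interfollicular basal cells 30.4% and 15.8%, and T cells 45.7% and 32.7%, so the mutant share was the lower one in all 4 groups of cells, and no rate of division is read from it. Of 14 S phase genes none passed the size rule and 13 had ratios below 0 (median -0.78), and of 10 G2/M genes none passed (median -0.29). Without the top 5% of cells of each gene these medians were -1.05 and -1.58. When members with at least 3 UMIs of another cell type's markers were removed, which left 26 control and 14 mutant cells, the log2 ratio of the share was 0.09.

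Markers of other cell types were measured in the members as a check. Those of other keratinocytes were common. At least 3 UMIs of interfollicular genes were held by 160 control and 74 mutant members, and of inner root sheath genes by 144 and 39. For sebaceous genes the numbers were 128 and 36, for upper follicle genes 119 and 63 and for hair shaft genes 65 and 8. Deeper cells meet this limit more readily, and the part of depth was not tested. The 7 fibroblast genes summed to 328 and 426 CPM, mostly Sparc, with Lum and Pdgfra at 0 UMIs in control and Mfap5 at 0 in mutant members. The 7 endothelial genes summed to 12.3 and 14.4 CPM, with Kdr and Emcn at 0 in both. The 8 T and NK cell genes summed to 90.5 and 11.4 CPM and were found with at least 3 UMIs in 19 control and 1 mutant members. Red cell globins summed to 4526 and 2785 CPM, with a median of 2.21 and 1.18 UMIs per 10000, and melanocyte genes to 263 and 195 CPM. The median of the melanocyte genes was 0.682 and 1.92 UMIs per 10000, and 48 control and 36 mutant members held at least 3 UMIs of them, so sum and median differ in direction. The highest cells held 174.6 and 28.2 per 10000. Dermal papilla genes summed to 214 and 57.6 CPM, mostly Sostdc1, the only one of them compared. At least 3 UMIs of the list were found in 82 control and 12 mutant members. Globin and T cell transcripts had lower values in mutant members, and their part in other ratios was not tested.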

How the data were processed

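The deposited files hold raw UMI counts per gene and barcode in 1 matrix for each genotype, with all samples of a group pooled. Per the submitters' processing notes, Cell Ranger 3.0.2, Seurat 3.0.0 and 3.1.0 and GRCm38 were used, and the labels give 10x 3' chemistry. Which samples are separate animals is not given in the labels, and no map from cells to samples was used. The members and gene lists were chosen with earlier results of these data known.

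Cells were required to show 500 genes or more, with a mitochondrial share of UMIs up to 15%. UMIs were summed over member cells and scaled to CPM. Ratios carry exact conditional Poisson intervals and shares exact Clopper-Pearson intervals at 95%. UMIs correct for amplification, and intervals cover counting error only. Genes at 10 CPM or more in either library were compared. Named genes were the 12 with the largest ratio in each direction past the size rule (leaving out mitochondrial, ribosomal and unnamed genes and genes under 10% of their highest class among the gates and T cells), list members past the rule, up to 6 members of each list with the highest CPM, and the rule and reporter genes. For other gates and classes they were the 12 largest ratios in each direction. Calls on likely doublets by Scrublet in scanpy 1.11.5 were kept and removed in an alternative. Python 3.11.15, numpy 2.4.6, scipy 1.17.1 and pandas 2.3.3 were used. TMM factors from edgeR 4.0.16 and size factors from DESeq2 1.42.0 (R 4.3.3) served as alternative scalings. The size rule was tested on simulated Poisson counts of summed profiles, without variation between cells. That test cannot show how the rule behaves for genes carried by few cells. Gene positions are from GRCm38. A gene that met the naming rule is not reported here, and counts over all genes include it.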

Additional observations from a re-analysis of the deposited data

How the results depend on the processing

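No paired analysis was possible because all samples of a group were pooled in 1 matrix, and for the same reason no replicate was left out. Only a chosen part of the 119 called genes was followed singly through the alternatives. In that part 7 genes kept their direction and stayed past the size rule under each of 17 alternatives run. The 7 were Cxadr, Cxcl16, Dusp7, Gm42418, Ndrg1, Neat1 and Plet1. Id1, Id3, Hopx, Gadd45g, Sostdc1, Lars2 and Igf1r did so in 16 of 17. The call held in 12 of 17 for Krt15 and in 11 of 17 for Fzd2. It held in 9 of 17 for Apoe, Krt35, Ppif and Smco4 and in 6 of 17 for Tnc.

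With a minimum of 50 CPM, 151 genes were higher and 69 lower. At 2 or more marker UMIs 52 were higher. With classes by leading marker weighted equally 73 were lower, and without members holding markers of other cell types (26 control and 14 mutant cells left) 62 were lower. These were in part other genes than the first 79 higher and 40 lower calls. At 2 or more marker UMIs 41 and 22 of the first calls were kept, and without members holding other markers 23 and 16. Among the members with fewer than 2 cell cycle UMIs before thinning 23 and 5 were kept. Without Postn the log2 ratio of the member share was -1.52.

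Some directions turned. Among the 27 control and 22 mutant members with fewer than 2 cell cycle UMIs before thinning, which are shallow cells, log2 ratios were 0.31 for Apoe, 0.82 for C2cd4b, 2.59 for Ccl27a, 3.51 for Cst6, 0.34 for Gadd45b, 0.52 for Id3, 0.13 for Krt15, -2.47 for Serpinb2, 0.0322 for Sertad1 and -0.43 for Tnc. Without members holding markers of other cell types they were 0.175 for Apoe, 1.29 for Ccl27a, 3.56 for Cst6, -0.11 for Hsph1, 2.49 for Krt25, 1.72 for Krt35 and 0.86 for Tchh, and the log2 ratio of the cell cycle share was 0.0857. The next 3 alternatives were chosen after seeing the data. With Sparc not counted among those markers (82 and 35 cells left) Cpm was at -0.76 and Krt25 at 0.0033. Without cells holding Krt79 or Cst6, Apoe was at 0.13, Ccl27a at 0.0562 and Cst6 at 0.89. Without the 5% of cells with most UMIs of each gene, Cpm was at -0.0236 and Tchh at 0.0826. With a mean over cells Ccl27a was at 0.0098, and at 2 or more marker UMIs Krt25 was at 1.07 and Tchh at 0.0742. The cause of these turns was not tested. The mutant members' 1319192 UMIs limit the precision for genes under about 100 CPM.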
